A study of Mus musculus with 3 samples.

Results

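Chaperones and heat shock proteins are the proteins that fold other proteins, keep them from clumping and hand them on. The genes were taken by symbol from the platform annotation: the Hsp families, the J proteins (Dnaja, Dnajb and Dnajc), the subunits of the cytosolic chaperonin (Tcp1 and Cct), Stip1, Cdc37, the Bag and Fkbp genes and the heat shock factors, without the proteoglycan Hspg2. Of 19635 genes measured on all 3 arrays, 96 were members, read by 105 oligos, and all 96 had a value on every array. Among the 19635, an oligo with no symbol or with several counts as a gene of its own. The ranks and backgrounds over all genes therefore include such oligos. Of 110 protein-coding genes in RefSeq whose symbols match the same rule, 94 were among them. Hsf1, Hsp90aa1, Hsp90ab1, Hspa1b, Ahsa1 and Bag2 were among the 16 not analysed here, so the cytosolic Hsp90 proteins themselves are represented only through their partner proteins.

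Each of the 3 arrays set RNA of 13.5 dpc (days post coitum) kidney against RNA of 10.5 dpc metanephric mesenchyme, the embryonic tissue from which the nephrons form. Both tissues were microdissected from normal CD1 mouse embryos, the sexes were pooled, and amplified RNA was hybridised. The deposited value is a log2 ratio of the channels. Which RNA is the numerator, and in which dye, is not stated by the labels. Ratios are therefore described by their sign as deposited, and neither sign is read as higher in the kidney. For orientation, Cdh16, a cadherin of kidney tubules, stood at 3.62, 2.75 and 3.54 on arrays 1, 2 and 3, and Wt1, needed for the mesenchyme to survive, at 1.92, 1.53 and 2.06. Hbb-bh1, an embryonic globin, stood at -3.88, -3.66 and -4.30. The globins Hba-x, Hba-a1 and Hbb-y lay near 0, with means of -0.21, -0.084 and -0.062. A log2 ratio compares 2 pooled tissues, so a change in the share of a cell type and a change of RNA per cell cannot be told apart.

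Hsp70 proteins bind short stretches of unfolded protein and release them as they turn over ATP. J proteins deliver the substrate and start ATP hydrolysis, and exchange factors such as the Bag proteins, Hspbp1 and the Hsp110 protein Hsph1 restart the cycle. Stip1 passes some of these substrates from Hsp70 to Hsp90, which matures kinases, steroid receptors and other regulators, while the chaperonins enclose proteins such as actin and tubulin in a barrel. Heat shock factors drive many of these genes under stress, and much of the same machinery serves rapid protein synthesis in growing embryos.

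Array 3 stood apart over part of the oligo library. In blocks of 700 oligos taken in library order (819 in the last), the correlation of arrays 1 and 3 across oligos lay between -0.18 and 0.13 in a run of 8 blocks, oligos 4902 to 10501, where arrays 1 and 2 correlated at 0.28 to 0.73. In the other 23 blocks arrays 1 and 3 correlated at 0.082 to 0.51. The run holds 14 member oligos, of 14 genes: Bag1, Bag3, Fkbp8, Hspa1l, Hspb3, Hspa8, Dnajc5b, Dnajc18, Dnajc22, Dnajb13, Hspa5, Dnajb14, Hspa13 and the pseudogene Hsp25-ps1. Hspa5 and Hspa8 also have an oligo outside it, and the oligo of Cdh16 lies inside it. In that run Dnajc5b had -0.33 and -0.34 on arrays 1 and 2 and 1.81 on array 3, and Hspb3 had -0.45, -0.51 and 0.44. Not every member there disagreed, since Dnajb13 had 1.20, 1.14 and 0.97, and Bag1 had -0.34, -0.37 and -0.23.

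**Figure D1:**
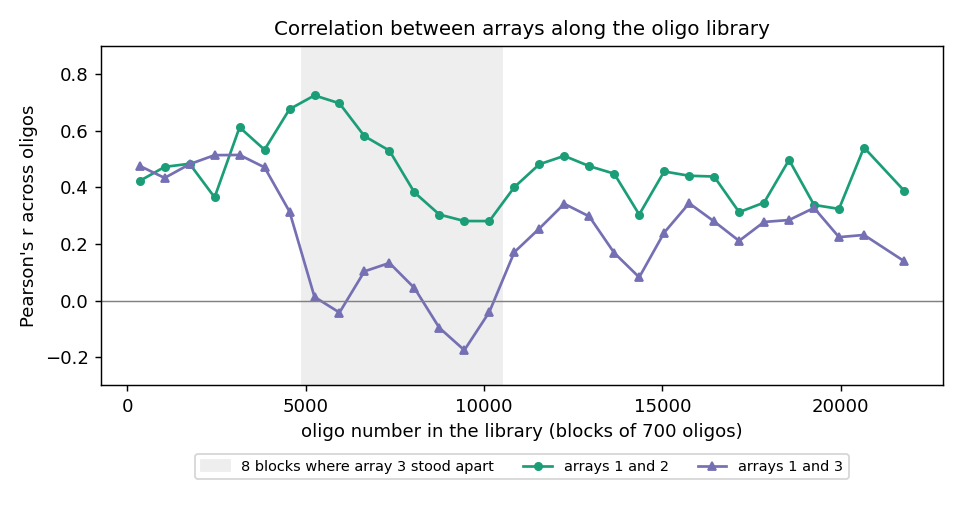
Pearson's r across oligos between arrays 1 and 2 (circles) and arrays 1 and 3 (triangles), on the y axis, for consecutive blocks of 700 library oligos along the x axis. In the shaded run of 8 blocks arrays 1 and 3 lie between -0.18 and 0.13, while arrays 1 and 2 lie between 0.28 and 0.73.

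As a whole the chaperone genes were spread around 0 much as all genes were. Their median mean log2 ratio was 0.023, with medians of 0.082, 0.0050 and 0.0034 on arrays 1, 2 and 3, against a median of 0.0020 over all genes. Positive means were found for 50 members (52.1%, against 50.3% of all genes) and negative means for 46, and 76 of the 96 were within 0.5 of 0 (79.2%, against 77.6% of all genes). Over all genes, limma passed 0 members at a Benjamini-Hochberg adjusted p under 0.05 (the background is 1 gene of 19635, or 0.00509%). At an unadjusted p under 0.05 limma gave 21 members, or 21.9%, against a background of 16.8%. Of these, 11 were positive (11.5%, background 8.99%) and 10 negative (10.4%, background 7.83%). Without array 1 the count of 21 was 12 (8 positive, 4 negative), with 4.32% of all genes positive and 4.14% negative at that p. Without array 2 it was 13 (8 positive, 5 negative), with 5.38% and 5.09% of all genes. The lowest limma adjusted p of any member was 0.107, and none is called changed.

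The member ratios repeated across arrays somewhat more often than those of all genes. All 3 arrays had 1 sign for 52 members, or 54.2%, against a background of 41.3%. Of these, 29 were positive (30.2%, background 21.5%) and 23 negative (24.0%, background 19.9%). Among genes with no oligo in the run where array 3 stood apart, the shares were 56.1% of 82 members and 43.8% of 14708 genes. The median SD over arrays was 0.22 for members and 0.32 for all genes. Member oligos were not spread evenly over the library. The blocks of oligos 1402 to 2101 and 3502 to 4201 held 29 and 18 of the 105. In those blocks arrays 1 and 3 correlated at 0.48 and 0.47. Whether library position bears on the shares with 1 sign, or on the 21.9% at an unadjusted limma p under 0.05, was not tested. The mean was 1 or more from 0 in 7 members, or 7.29% (background 5.33%). The 2 negative ones were Stip1 and Cdc37 (background 2.98%), and the 5 positive ones Dnajb9, Fkbp7, Dnaja1, Cct8 and Dnajb13 (background 2.35%).

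**Figure D2:**
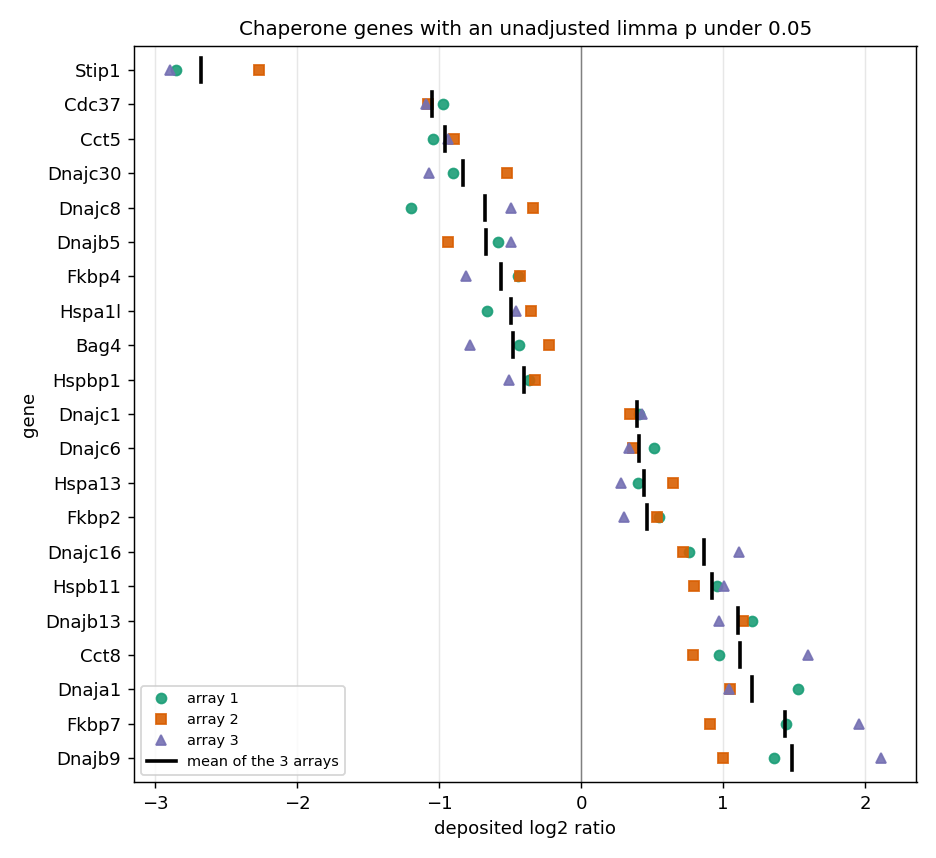
Deposited log2 ratio on the x axis for the 21 members with an unadjusted limma p under 0.05, 1 gene per row, with 1 symbol per array and a bar at the mean of the 3 arrays. Stip1, at -2.86, -2.27 and -2.90, lies apart from the other 20 genes, whose means run from -1.05 to 1.49.

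The Hsp90 co-chaperones gave the most extreme member. Stip1, the adaptor that holds Hsp70 and Hsp90 together, stood at -2.86, -2.27 and -2.90 on arrays 1, 2 and 3. Its mean was -2.68 ± 0.35 (SD, n = 3 arrays, limma 95% interval -3.20 to -2.15), a 6.39-fold difference, with a limma adjusted p of 0.107. Only 13 of 19635 genes had a lower mean. Cdc37, which brings protein kinases to Hsp90, had -0.97, -1.08 and -1.10, a mean of -1.05 ± 0.068 and a 2.07-fold difference (limma adjusted p = 0.109). The 3 arrays agreed closely for Cdc37 and were all on the same side for both genes. Stip1 and Cdc37 were each read by 1 oligo, as were 88 of the 96 members, so no second oligo checks these values.

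The Fkbp proteins include the prolyl isomerases that sit on Hsp90 with steroid receptors. Fkbp4 stood at -0.44, -0.43 and -0.81, a mean of -0.56 ± 0.22 (limma adjusted p = 0.228). Its relative Fkbp5 had -1.06, 0.038 and -0.35, so its arrays did not share a sign. Of the other 8 Fkbp genes, 6 were positive. Fkbp7, an isomerase of the endoplasmic reticulum (ER), had 1.44, 0.90 and 1.96, a mean of 1.43 ± 0.53 and a 2.70-fold difference (limma adjusted p = 0.125). Fkbp2, also of the ER, had 0.55, 0.53 and 0.30 (mean 0.46 ± 0.14). Fkbp1a, the cytosolic target of the drug FK506, stood at 0.19 ± 0.098, and Fkbp1b, Fkbp3, Fkbp8, Fkbp9 and Fkbp11 lay between -0.073 and 0.36.

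Genes for other Hsp90 partners, which are no members, were described beside these. They were taken from a list of further folding genes, and were set apart as a group after their values had been seen. Of 14, 11 were negative and 3 positive, with a median of -0.41, and 6 negative and 1 positive had an unadjusted limma p under 0.05 (backgrounds of 7.83% and 8.99%). Sugt1, a co-chaperone of receptor and kinetochore proteins, had -1.03, -1.29 and -1.81. Ppp5c, a phosphatase that docks on Hsp90, had -1.23, -1.33 and -1.49, and Ptges3, the p23 protein that steadies the closed form of Hsp90, had -1.45, -0.93 and -0.99. Pih1d1 and Rpap3, which join in a complex that assembles larger machines with Hsp90, had means of -0.90 ± 0.28 and -0.64 ± 0.24, and Chordc1 had -0.48 ± 0.12. The exception among those 7 was St13, the Hip protein that steadies Hsp70 on its substrate, at 0.90, 0.42 and 0.80. Ptges3 and Chordc1 have their oligo in the run where array 3 stood apart, and their means without array 3 were -1.19 and -0.49. Without array 1, 4 negative genes (Sugt1, Ppp5c, Ptges3 and Pih1d1) and 0 positive were left at an unadjusted p under 0.05. The backgrounds without array 1 were 4.14% negative and 4.32% positive. Over all genes limma passed 0 of the 14.

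**Figure D3:**
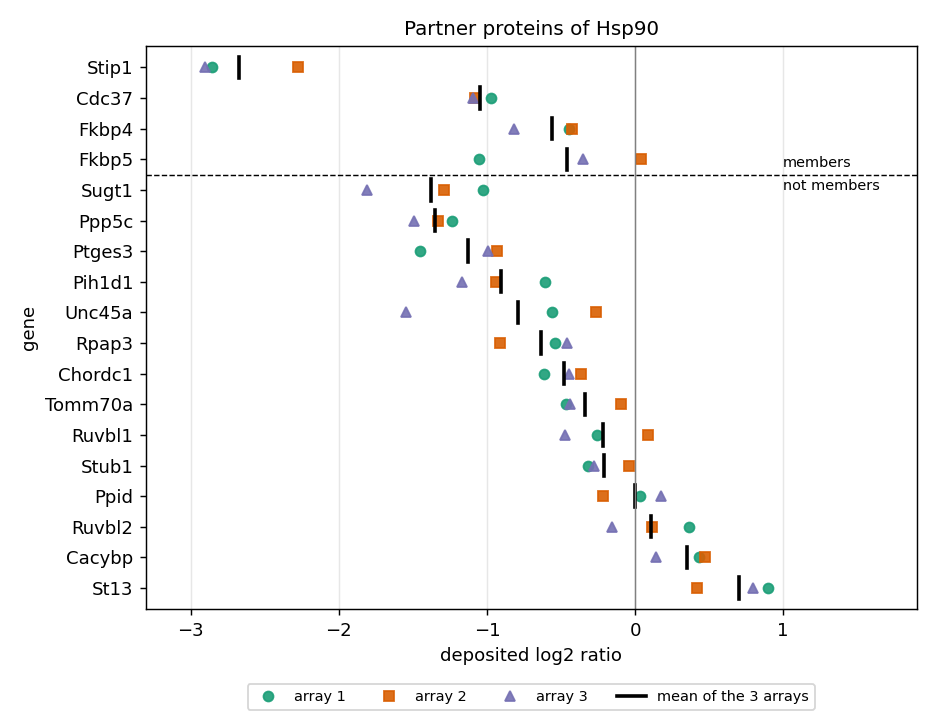
Deposited log2 ratio on the x axis for partner proteins of Hsp90, 1 gene per row, with 1 symbol per array and a bar at the mean of the 3 arrays; members are above the dashed line and genes outside the rule below it. Sugt1, Ppp5c, Ptges3, Pih1d1, Unc45a, Rpap3, Chordc1, Tomm70a and Stub1 are negative on every array, as are Stip1, Cdc37 and Fkbp4, while St13 and Cacybp are positive on every array.

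The Hsp70 and Hsp110 genes stayed near 0. All 13 had means within 0.5 of 0, between -0.49 and 0.44, with 6 positive, 7 negative and a median of -0.067. Hspa8, the constitutive cytosolic Hsp70, averaged -0.067 ± 0.18 (limma 95% interval -0.49 to 0.36), but its oligos opposed each other: one had -0.38, -0.64 and -0.23, and the other, in the run where array 3 stood apart, 0.29, 0.13 and 0.42. Hspa5, the ER Hsp70 known as BiP, averaged -0.29 ± 0.15, with oligo means of -0.042 and -0.54. Hspa9, the mitochondrial Hsp70, had 0.27, -0.31 and -0.21, and Hspa4, a cytosolic Hsp110 relative, had 0.58, 0.13 and 0.34. Hsph1, the stress-inducible Hsp110, had -0.31, -0.34 and -0.19 (mean -0.28 ± 0.082).

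Hspa1a, an inducible Hsp70, did not share a sign across arrays. It had 0.49, 0.86 and -0.36, and its near-identical copy Hspa1b could contribute to the same spot. At an unadjusted p under 0.05 stood Hspa1l, an Hsp70 best known from testis, at -0.66, -0.35 and -0.46, and Hspa13, an ER-associated Hsp70 relative, at 0.40, 0.65 and 0.28. Both have their oligo in the run where array 3 stood apart. Their means without array 3 were -0.51 and 0.52, and with array 3 left out of that run neither reached an unadjusted p under 0.05.

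Exchange factors of Hsp70 were small in ratio. Hspbp1 had -0.37, -0.33 and -0.51 (mean -0.40 ± 0.096, limma adjusted p = 0.292), and Bag4, which also restrains death receptors, had -0.44, -0.23 and -0.79 (mean -0.48 ± 0.28, limma adjusted p = 0.296). Bag1, the founding Bag protein, averaged -0.31 ± 0.073 and Bag3, which is stress-inducible and acts in selective autophagy, 0.39 ± 0.17, with each on 1 side on all 3 arrays. Bag5 stayed at 0.061, 0.0043 and 0.0029, and Bag6 had 0.65, -0.047 and -0.24.

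J proteins made up 42 of the 96 members, 25 of them positive, with a median of 0.15. At an unadjusted p under 0.05, 6 were positive and 3 negative, against backgrounds of 8.99% and 7.83%. Without array 1, and likewise without array 2, 5 were positive (11.9%) and 1 negative (2.38%), Dnajc30. The backgrounds were then 4.32% and 4.14% without array 1, and 5.38% and 5.09% without array 2. Dnajb9, an ER J protein that binds BiP and misfolded proteins, had 1.36, 0.997 and 2.11, a mean of 1.49 ± 0.57 and the highest of any member (2.81-fold, limma adjusted p = 0.129). Dnaja1, a main cytosolic partner of Hsp70, had 1.53, 1.05 and 1.04, a mean of 1.21 ± 0.28 (2.31-fold, limma adjusted p = 0.110). Its relatives Dnaja2, Dnaja3 and Dnaja4 had arrays of both signs, with means of 0.22, -0.39 and -0.38. Dnajb1, the J protein of the heat shock response, had 0.036, 0.19 and -0.53.

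Among these 9 J proteins were several with tasks outside general folding. Dnajb13, a component of the radial spokes of motile cilia and sperm tails, had 1.20, 1.14 and 0.97 (mean 1.10 ± 0.12, 2.15-fold, limma adjusted p = 0.109). Dnajc16 had 0.76, 0.72 and 1.11 (mean 0.86 ± 0.21). Dnajc6, the auxilin that strips clathrin from vesicles, had 0.51, 0.37 and 0.34. On the negative side, Dnajc30, a mitochondrial J protein, had -0.90, -0.52 and -1.07 (mean -0.83 ± 0.28), Dnajb5 had -0.59, -0.94 and -0.49, and Dnajc8, a spliceosome-associated protein, had -1.20, -0.34 and -0.50. Array 1 gave the largest part of the Dnajc8 mean. The remaining 33 J proteins did not reach an unadjusted p under 0.05, and their means ran from -0.51 for Dnajc25, which had 0.54, -1.81 and -0.27, to 0.63 for Dnajc21, which had 1.29, -0.095 and 0.69.

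**Figure D4:**
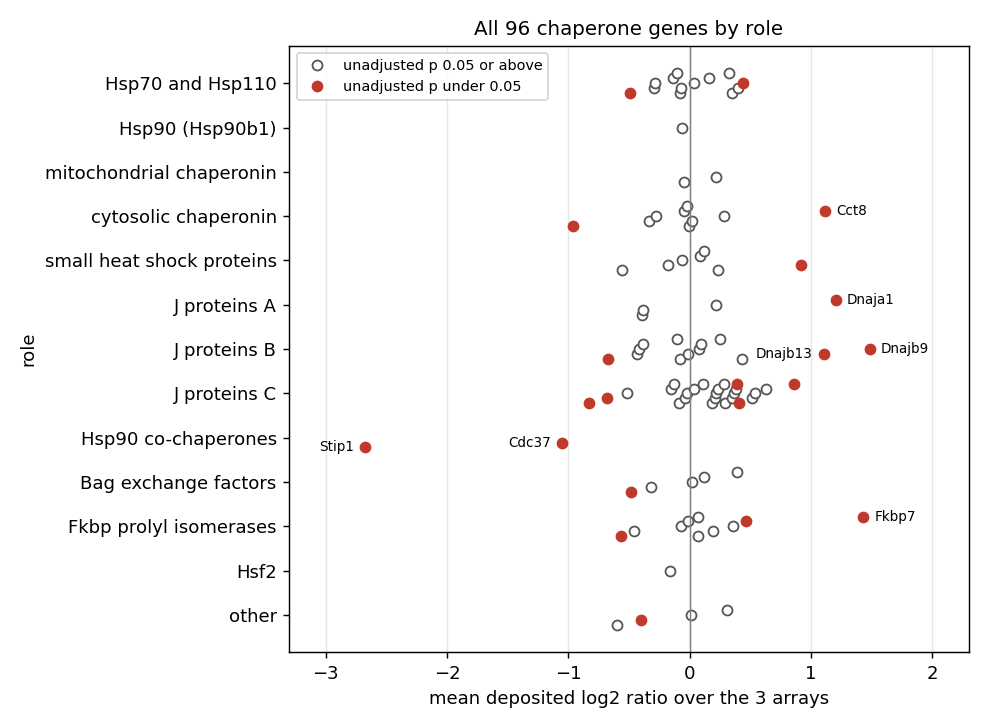
Mean deposited log2 ratio over the 3 arrays on the x axis for all 96 members, 1 point per gene, grouped by role down the page; filled points have an unadjusted limma p under 0.05 and genes of at least 1 in size are named. The 13 Hsp70 and Hsp110 genes lie between -0.49 and 0.44, and Stip1 at -2.68 is the lowest point.

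The subunits of the cytosolic chaperonin, which work in rings of 8 different proteins, did not share a ratio as read by these oligos. Cct8 had 0.97, 0.78 and 1.60 (mean 1.12 ± 0.42, 2.17-fold, limma adjusted p = 0.144), while Cct5 had -1.04, -0.89 and -0.94 (mean -0.96 ± 0.076, limma adjusted p = 0.110). These genes lay on opposite sides on all 3 arrays. Each was read by 1 oligo, so a difference between genes and one between oligos cannot be told apart. Cct3 had 0.15, 0.38 and 0.31, and Cct4, Cct6a and Cct7 had means of -0.024 ± 0.15, -0.0025 ± 0.12 and -0.048 ± 0.073. Cct2 ran from -0.66 on array 1 through 0.070 on array 2 to 0.65 on array 3, so its mean of 0.023 describes no array well. Cct6b, the testis form of Cct6a, had -0.38, -0.0087 and -0.61.

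Tcp1, the remaining subunit, depended on the oligo. Its first oligo had -1.12, -0.90 and -0.97 (mean -0.996 ± 0.115), close to Cct5, and its second 0.14, 0.57 and 0.63 (mean 0.45 ± 0.27). The average of -0.27 ± 0.19 is that of no single oligo. In the RefSeq annotation (GRCm38.p6) Tcp1 spans chr17:12916329-12925067, and the small nucleolar RNA gene Snora20 lies inside it at chr17:12922857-12922917. Whether the Tcp1 oligos read the same RNA was not tested.

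**Figure D5:**
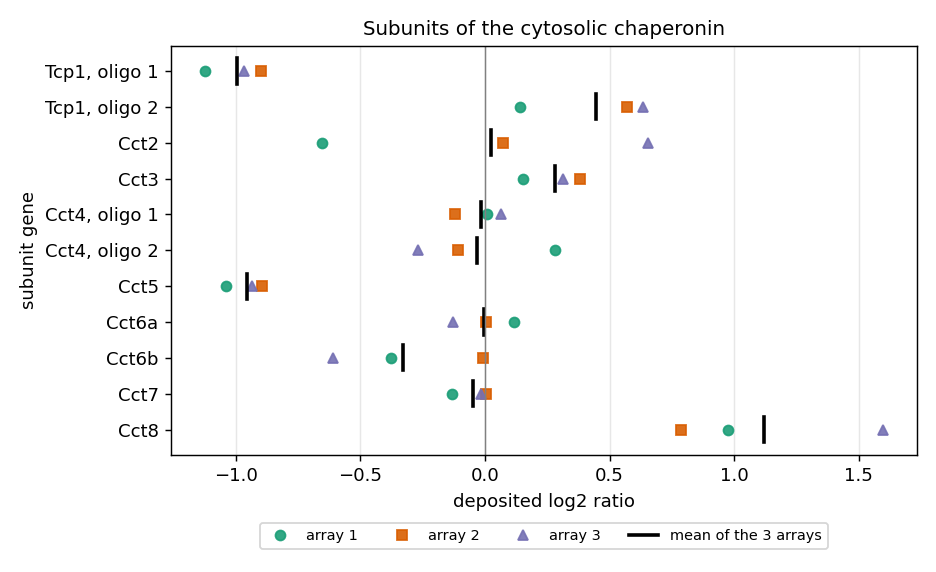
Deposited log2 ratio on the x axis for the subunit genes of the cytosolic chaperonin, 1 row per gene or, for Tcp1 and Cct4, per oligo, with 1 symbol per array and a bar at the mean of the 3 arrays. Cct5 and the first Tcp1 oligo lie near -1 on every array, Cct8 and the second Tcp1 oligo are positive on every array, and Cct2 spreads from -0.66 to 0.65.

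Oligos of a gene also differed for other members. Of the 8 members with several oligos, Dnajc1 had oligo means of -0.11 ± 0.24 and 0.90 ± 0.15, so that its average of 0.39 ± 0.042 rests on the second. Dnajc2, a ribosome-bound J protein, had 3 oligos at 0.68 ± 0.16, 0.034 ± 0.80 and -0.38 ± 0.15. Hsf2, the only heat shock factor measured, had one oligo at -0.15, -0.28 and -0.23 and another at -0.45, -0.41 and 0.59. The Dnajb4 oligos averaged -0.053 and 0.24, and those of Cct4 -0.016 and -0.032.

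The mitochondrial chaperonin hardly departed from 0. Hspd1, the Hsp60 barrel, had 0.24, 0.16 and 0.26 (mean 0.22 ± 0.055, limma 95% interval -0.17 to 0.60), and Hspe1, its Hsp10 lid, had -0.18, -0.051 and 0.10. The pseudogene Hspe1-ps6, which may share sequence with Hspe1, had 0.038, 0.68 and 0.22. Hsp90b1, the ER Hsp90, had 0.095, -0.37 and 0.076 (mean -0.065 ± 0.26).

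Small heat shock proteins hold unfolding proteins in solution until other chaperones take over. Hspb1, the Hsp27 type, had -0.11, 0.033 and -0.10 and Hspb8, the partner of Bag3, 0.14, 0.16 and 0.066. Hspb7, Hspb3 and Hspb2, known mostly from heart and skeletal muscle, had means of -0.55 ± 0.41, -0.18 ± 0.53 and 0.23 ± 0.47, and none reached an unadjusted p under 0.05. The member of this family with the largest mean was Hspb11, which is known as the intraflagellar transport protein Ift25 of cilia rather than as a classical chaperone. It had 0.96, 0.80 and 1.01, a mean of 0.92 ± 0.11 (limma adjusted p = 0.117).

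Sorted by compartment, 12 members were assigned to the ER lumen and 7 to mitochondria, after the values had been seen. Dnajc16 (mean 0.86), which had an unadjusted limma p under 0.05, was placed in neither group. Dnajc1, which spans the ER membrane with its J domain in the lumen, was counted, while Dnajb12 (mean -0.38) and Dnajb14 (-0.077), whose J domains face the cytosol, were not. Of the 12 ER members 5 were positive and 0 negative at an unadjusted limma p under 0.05 (Dnajb9, Fkbp7, Fkbp2, Hspa13 and Dnajc1), with a median of 0.18 and backgrounds of 8.99% and 7.83%. Both counts rest on averaged oligos. The Dnajc1 oligos had means of -0.11 and 0.90, and the second Hspa5 oligo, at -0.54, had an unadjusted limma p of 0.046 on its own. Without array 1, and likewise without array 2, 2 of the 5 were left, Dnajb9 and Fkbp7, and with array 3 left out of its run Hspa13 was lost. The positive background was 4.32% without array 1 and 5.38% without array 2. With Dnajb12 and Dnajb14 added, the median of the 14 was 0.031. The abundant ER chaperones Hspa5 and Hsp90b1 were among the 12 ER members but not among the 5 at an unadjusted limma p under 0.05. Dnajb11 and Dnajc3, other J proteins that bind BiP, had means of -0.0098 and -0.087, and of 16 further ER folding genes outside the rule 10 were negative, with a median of -0.062. Of these 16, 1 reached an unadjusted p under 0.05, the disulfide isomerase Pdia3, at -0.48 ± 0.19. Of the 7 mitochondrial members 3 were positive, and Dnajc30 alone reached it.

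Promoters were available in the RefSeq table (GRCm38.p6, 250 bases before to 50 after each annotated start) for 81 of the 96 members. They were searched on both strands for the units that heat shock factors bind, GAANNTTC and TTCNNGAA, for the 3-unit form, GAANNTTC continued by NNGAA, and for the ER stress element, CCAAT and CCACG with 9 bases of any kind between them. The 3-unit form contains both 2-unit forms. The 3-unit form was found in 4 of 81 members (4.94%), Hspd1, Hspe1, Hsph1 and Dnajb6, and in 0.662% of all 27025 genes in the table. The ER stress element was found in 3 members (3.70%), Hspa5, Hsp90b1 and Dnajc3, and in 0.137% of all genes. A match describes these letters and does not show that a factor binds. The elements are shown in capitals, 5′ to 3′ on the strand of each gene. Hspd1 and Hspe1 are divergent neighbours, and their 2 overlapping matches are the same bases read on opposite strands. Hsp90b1 has 2 separate matches, the second on the other strand.
Hspd1, chr1:55088024-55088111, minus strand: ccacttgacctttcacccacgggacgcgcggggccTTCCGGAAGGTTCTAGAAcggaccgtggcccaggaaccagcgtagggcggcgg
Hspe1, chr1:55088024-55088111, plus strand: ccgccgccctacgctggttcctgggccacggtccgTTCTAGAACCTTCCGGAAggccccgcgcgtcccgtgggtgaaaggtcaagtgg
Hsph1, chr5:149636287-149636335, minus strand: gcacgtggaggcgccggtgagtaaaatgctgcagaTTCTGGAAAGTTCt
Dnajb6, chr5:29735817-29735899, plus strand: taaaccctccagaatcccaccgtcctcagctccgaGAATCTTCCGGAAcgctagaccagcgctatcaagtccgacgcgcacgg
Hspa5, chr2:34771990-34772078, plus strand: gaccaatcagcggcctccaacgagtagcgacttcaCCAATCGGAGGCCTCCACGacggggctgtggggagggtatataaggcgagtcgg
Hsp90b1, chr10:86705498-86705691, minus strand: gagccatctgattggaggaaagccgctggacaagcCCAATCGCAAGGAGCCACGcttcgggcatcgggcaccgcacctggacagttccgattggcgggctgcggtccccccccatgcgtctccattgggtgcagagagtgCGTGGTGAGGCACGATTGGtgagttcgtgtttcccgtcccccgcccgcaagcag
Dnajc3, chr14:118937792-118937880, plus strand: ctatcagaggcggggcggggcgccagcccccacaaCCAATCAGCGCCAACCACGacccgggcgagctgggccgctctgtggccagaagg

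The genes with these elements had ratios near 0. The 4 with the 3-unit heat shock form had means between -0.28 and 0.22 (Hspd1 0.22, Dnajb6 0.082, Hspe1 -0.045 and Hsph1 -0.28). The 3 with the ER stress element had means between -0.29 and -0.065. With oligos averaged, 0 of the 7 reached an unadjusted limma p under 0.05, against a background of 16.8%. So few genes cannot set that count apart from the background. Tested on its own, the second Hspa5 oligo, at -0.54, had an unadjusted limma p of 0.046. A 2-unit form was found in 20 of the 81 members, 14 with GAANNTTC (17.3%, against 9.04% of all genes) and 10 with TTCNNGAA (12.3%, against 9.60%). Their median was 0.053, beside 0.023 for the 61 members without one.

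Of the 20 members with a 2-unit form, 5 had an unadjusted limma p under 0.05, beside 13 of the 61 without one (background 16.8% of all genes). These 5 lay on both sides. Dnaja1 (mean 1.21) and Fkbp4 (-0.56) have GAANNTTC, and Fkbp7 (1.43), Cdc37 (-1.05) and Cct5 (-0.96) have TTCNNGAA, again in capitals.
Dnaja1, chr4:40722309-40722386, plus strand: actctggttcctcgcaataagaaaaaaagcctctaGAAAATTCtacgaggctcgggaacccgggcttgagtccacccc
Fkbp4, chr6:128438765-128438842, minus strand: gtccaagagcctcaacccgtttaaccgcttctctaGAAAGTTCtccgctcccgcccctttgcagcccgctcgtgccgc
Fkbp7, chr2:76673253-76673330, minus strand: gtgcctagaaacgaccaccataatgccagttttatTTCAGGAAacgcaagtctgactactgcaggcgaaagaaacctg
Cdc37, chr9:21150062-21150139, minus strand: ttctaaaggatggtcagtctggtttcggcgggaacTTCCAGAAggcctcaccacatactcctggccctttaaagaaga
Cct5, chr15:31601838-31601915, minus strand: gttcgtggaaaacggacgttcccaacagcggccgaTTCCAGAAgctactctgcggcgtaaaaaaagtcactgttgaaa

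The promoter of Stip1, the member with the lowest mean ratio, has none of the searched elements in its window of 300 bases and is shown whole, with no capitals.
Stip1, chr19:7039977-7040276, minus strand: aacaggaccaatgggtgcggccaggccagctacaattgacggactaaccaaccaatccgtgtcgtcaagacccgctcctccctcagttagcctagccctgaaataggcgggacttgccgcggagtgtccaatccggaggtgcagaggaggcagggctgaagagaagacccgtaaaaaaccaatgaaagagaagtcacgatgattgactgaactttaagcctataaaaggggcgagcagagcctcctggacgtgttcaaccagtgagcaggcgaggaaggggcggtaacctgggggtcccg

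Beyond the members, 53 other folding genes were measured of 54 listed. Of these 37 were negative and 16 positive, with a median of -0.20, and at an unadjusted limma p under 0.05 there were 8 negative and 4 positive (backgrounds of 7.83% and 8.99%). Without array 1 there were 4 negative and 0 positive (backgrounds of 4.14% and 4.32%). Without array 2 there were 7 negative and 1 positive (backgrounds of 5.09% and 5.38%). Prefoldin, the complex that hands actin and tubulin chains to the chaperonin, was split as the chaperonin was: Pfdn5 had -1.43, -0.19 and -0.99, against 0.59, 0.45 and 0.30 for Pfdn1 and 0.61, 0.62 and 0.57 for Pfdn4. Pfdn5, Pfdn1 and Pfdn4 were also read by 1 oligo each. Clpx, the unfoldase of a mitochondrial protease, had 0.59, 0.97 and 0.45. Limma passed 0 of the 53 over all genes.

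Markers of cell types that the dissected tissue could hold lay mostly on 1 side of 0. All 11 red-cell markers measured of 13 had negative means, with a median of -0.55, and 9 of them were negative on all 3 arrays. These means ran from -3.95 for Hbb-bh1 to -0.062 for Hbb-y. Of 10 muscle markers measured of 12, 8 were negative, with a median of -0.56. Of 12 markers of the kidney and its mesenchyme 9 were positive, with a median of 0.48. The 3 negative ones were Osr1, at -0.61, -0.60 and -0.49 on arrays 1, 2 and 3, Ret (mean -0.19) and Sall1 (-0.012). The part of these cell types in the ratios of Stip1, Cdc37 and the other members was not tested.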

How the data were processed

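Each array's deposited column holds log2 ratios made by the authors from its 2 channels. Per the labels, images were read with ImaGene 5.5 and normalized in R by print-tip loess and between arrays. A Lowess curve on 20% of the data at each point adjusted the control value, with values under 10 set to 10. That they are log2 was taken from the values: raised as powers of 2, 99.7% to 99.8% of each array's entries come out with 3 decimals (tolerance 0.01 of the last one). The lowest ratio in the table, 0.01, was held by 0 members. The labels do not say whether a dye-swapped array was turned, and no sign was turned here. Since loess centres the ratios, a change shared by most genes is hidden. Spot intensities were not used here, so dim and saturated spots could not be examined, and the number of arrays limits the precision.

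Of 21819 library oligos, 21094 had a value on all 3 arrays, and oligos of a symbol were averaged. The 5026 library oligos with no symbol and the 137 with several were kept singly, each counted as a gene where it had all values. Limma 3.58.1, run in R 4.3.3, compared each gene's mean with 0 (intercept only, two-sided, eBayes), and p-values were adjusted by Benjamini-Hochberg over all 19635 genes, and the script was tested on simulated data. Errors are SDs over 3 arrays. For 1 gene, the smallest two-sided p of an exact sign-flip test is 0.25. No label names separate tissue pools for the arrays, so the p-values cover the spread among these arrays alone, possibly a technical one.

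The members, roles and lists were chosen with earlier results of these data known. Named were members with an unadjusted p under 0.05 or a mean of at least 1 in size with 1 sign on all arrays, the main members of each role whatever their values, and other folding genes with an unadjusted p under 0.05. Others were named for their oligos, promoters or arrays after their values were seen. Alternatives were median centring, scaling and quantile normalization of arrays, single oligos, genes on at least 2 arrays, leaving out the lowest ratios, array weights, robust eBayes and leaving out each array. Leaving array 3 out of the oligo run where it stood apart was added after seeing the data, as were the block size of 700 and the limit of r, 0.15, that bounded the run. All 96 members matched a RefSeq gene by Entrez identifier, which changed 0 symbols.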

Additional observations from a re-analysis of the deposited data

How the results depend on the processing

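Limma passed 0 members in every setting tried, with 20 to 24 members at an unadjusted p under 0.05 in the settings that kept all arrays (23 of 105 where oligos were counted singly). The count was 12 to 20 with 1 array left out, 12 without array 1 and 13 without array 2; a fit on 2 arrays has less power. All 21 members kept their sign in the 11 settings that averaged oligos, and with array 3 left out of its run 19 of them still reached an unadjusted p under 0.05. Signs turned for several means near 0, and with single oligos also for Tcp1 and Dnajc1, whose means were -0.27 and 0.39. With single oligos Tcp1 was 0.45, Hspa8 0.28 and Dnajc1 -0.11 on 1 of their oligos. With array weights Dnajb1 was 0.027, Cct6a 0.026 and Cct2 -0.11. With 1 array left out the means ran from -0.29 to 0.36 for Cct2, -0.25 to 0.11 for Dnajb1, -0.26 to 0.031 for Hspa9, -0.15 to 0.026 for Hspa8, -0.14 to 0.085 for Hsp90b1, -0.12 to 0.024 for Hspe1, -0.11 to 0.021 for Cct4 and -0.062 to 0.061 for Cct6a. The cause of these turns was not tested. No paired analysis was possible because all arrays form 1 group.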
